A study of Homo sapiens with 35 samples.

Results

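The 10 enzymes described here supply the cell with serine, the 1-carbon units carried on folate, and cysteine. They are PHGDH, PSAT1, PSPH, SHMT2, MTHFD2, ALDH1L2, CTH, CBS, PCK2 and GPT2, chosen by gene name from the 60665 genes of a table of raw read counts, and all 10 passed the filter on low counts that left 19275 genes. PHGDH, PSAT1 and PSPH make serine from an intermediate of glycolysis, in that order. SHMT2, MTHFD2 and ALDH1L2 work in mitochondria and pass the side-chain carbon of serine along folate carriers, CBS and CTH turn homocysteine and serine into cysteine, and PCK2 and GPT2 are mitochondrial enzymes of phosphoenolpyruvate and alanine metabolism. Most of these genes are known targets of ATF4, a transcription factor whose translation increases when cells lack amino acids or are under other stress.

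Total RNA was sequenced from 35 libraries of HEK293T cells, an established line from human embryonic kidney that carries the SV40 large T antigen and stands here for a single cultured line, not for kidney tissue. Every library received a pool of short interfering RNAs (siPOOL) at 5 nM over 72 h, the controls included. The first set held depletions of TSPYL2, ZEB1, ZNF608, ZNF609 and ZNF687 (2 libraries each) and 3 controls. The second set held glucose-starved cells depleted of INTS13 or HDGF (2 libraries each) or given the control siPOOL (4 libraries), with glucose withheld for the last 24 h, and cells in full medium (fed) depleted of INTS13, HDGF or ZNF655 (2 each) or given the control siPOOL (4). The last, called the third set, held ZMYND8 depletion and controls labelled for it (2 libraries each). INTS13 is a subunit of Integrator, a complex that cleaves RNAs as RNA polymerase II makes them. The other targets are proteins that the study names as partners of Integrator, and the design asks how their loss relates to that of INTS13 and to the answer to starvation. The sets are groupings made here from the replicate numbers and the controls labelled for ZMYND8. No label places ZNF655 in one of them or names a control of its own. Its replicate numbers occur in both the second and the third set. It was counted here in the second set and compared with the controls of that set. The INTS13, HDGF and ZNF655 comparisons therefore share those controls. Since the labels do not say whether replicate libraries came from separate cultures, the p-values describe only how these libraries vary, which may be technical.

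Libraries held 16766673 to 50790278 counts on genes. The 10 enzymes together took 0.241 to 0.242% of the counts in starved INTS13-depleted cells, 0.229 to 0.232% in starved HDGF-depleted cells and 0.215 to 0.226% in starved control cells, against 0.143 to 0.151% in fed control cells of the same set. LIN28B, at 106.5 to 257.2 CPM (counts scaled to the size of each library), and VIM, at 316.4 to 729.2 CPM, were high in every library, as is known for this line. NEFM ranged between 7.52 and 51.88 CPM, and PAX2, a kidney marker listed for the line, reached at most 2.07 CPM. Among markers of other cell types, CD3E was at 0 throughout. PTPRC, CDH5 and ALB reached at most 0.0401, 0.112 and 0.237 CPM, while the fibroblast marker COL1A1 lay between 1.07 and 9.447 CPM. Each siPOOL lowered its own target, by log2 fold changes between -0.84 for ZNF608 and -3.58 for HDGF, with 14.2 CPM of INTS13 in INTS13-depleted cells, against 102.2 CPM in controls, and 23.6 CPM of ZMYND8 in ZMYND8-depleted cells, against 45.4 CPM in its controls. In bulk RNA, fewer cells expressing a gene and less RNA per cell cannot be told apart.

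On hg38, the serine genes lie at chr1:119648411-119744226 (PHGDH, plus strand), chr9:78297125-78330093 (PSAT1, plus) and chr7:56011051-56051604 (PSPH, minus). The folate genes lie at chr12:57229573-57234935 (SHMT2, plus), chr2:74198610-74217565 (MTHFD2, plus) and chr12:105019784-105107643 (ALDH1L2, minus), and the cysteine genes at chr1:70411218-70439851 (CTH, plus) and chr21:43053191-43076943 (CBS, minus). PCK2 lies at chr14:24094053-24110598 and GPT2 at chr16:46884362-46931289, both on the plus strand.

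Promoter sequence of RefSeq (GRCh38.p14, 250 bases before to 50 after the start) was found for 6 of the 10 enzymes, PHGDH, PSAT1, MTHFD2, CTH, CBS and PCK2. Shown are those of the 3 enzymes that rose most in starved control cells, PCK2, PSAT1 and CTH, and that of PHGDH, which opens the serine pathway. They lie on the plus strand at chr14:24094061-24094360 (PCK2), chr9:78296875-78297174 (PSAT1), chr1:70411018-70411317 (CTH) and chr1:119711684-119711983 (PHGDH), and capitals mark the CCAAT box, a common promoter element.
PCK2: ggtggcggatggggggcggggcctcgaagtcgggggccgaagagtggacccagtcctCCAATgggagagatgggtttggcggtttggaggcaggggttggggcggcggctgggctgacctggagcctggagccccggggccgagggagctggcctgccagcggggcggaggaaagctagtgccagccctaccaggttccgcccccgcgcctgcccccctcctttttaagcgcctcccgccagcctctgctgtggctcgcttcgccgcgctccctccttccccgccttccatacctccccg
PSAT1: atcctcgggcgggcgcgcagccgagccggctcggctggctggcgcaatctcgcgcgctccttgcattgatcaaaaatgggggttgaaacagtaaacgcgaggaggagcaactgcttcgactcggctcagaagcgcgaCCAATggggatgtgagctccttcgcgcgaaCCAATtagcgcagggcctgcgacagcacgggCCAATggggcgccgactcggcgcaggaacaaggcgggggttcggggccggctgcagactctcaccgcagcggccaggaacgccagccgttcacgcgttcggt
CTH: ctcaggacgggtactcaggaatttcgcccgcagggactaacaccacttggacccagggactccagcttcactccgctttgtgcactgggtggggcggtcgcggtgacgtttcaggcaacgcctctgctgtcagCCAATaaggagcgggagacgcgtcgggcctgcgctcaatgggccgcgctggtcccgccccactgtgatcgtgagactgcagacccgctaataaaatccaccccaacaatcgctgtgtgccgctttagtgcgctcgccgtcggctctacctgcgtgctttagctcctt
PHGDH: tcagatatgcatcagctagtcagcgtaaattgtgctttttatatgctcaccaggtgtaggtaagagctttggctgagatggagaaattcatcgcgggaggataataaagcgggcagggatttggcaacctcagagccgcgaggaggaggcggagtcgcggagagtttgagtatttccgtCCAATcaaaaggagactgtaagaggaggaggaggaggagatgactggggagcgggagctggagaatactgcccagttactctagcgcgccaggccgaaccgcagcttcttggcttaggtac
The table lists 8 promoters for these 6 enzymes, 3 of them for CBS. Read on both strands, CCAAT stood in 7 of the 8, all but 1 of those of CBS, and in 34.6% of all 35116 promoters of that length. PSAT1 held it at -113, -83 and -52 from the start, PCK2 at -193, CTH at -117 and PHGDH at -71. The GC box GGGCGG stood in 5 of the 8, against 45.0% of all promoters. The letters of the C/EBP-ATF response element, TGATGNAA, through which ATF4 is known to act, stood in 0 of the 8, against 3.62% of all promoters, and so did TGACGTCA (1.85% of all), TGACGNAA (1.66%) and the E-box CACGTG (7.26%). No pattern is contained in another, and a match or its lack describes only the letters in this window.

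Among fed controls of the second set, per kilobase of exon, MTHFD2 stood highest at 75.6 ± 5.69 CPM per kb, followed by PSAT1 at 65.9 ± 5.61, SHMT2 at 51.5 ± 2.91 and PHGDH at 49.2 ± 3.49 (mean and SD, n = 4 each here and below). PSPH averaged 14.7 ± 0.867 CPM per kb, GPT2 13.98 ± 0.319, CTH 10.1 ± 0.919, ALDH1L2 6.58 ± 0.285, PCK2 6.06 ± 0.613 and CBS 2.46 ± 0.15. The ranges of MTHFD2 and PSAT1, of SHMT2 and PHGDH, of PSPH and GPT2, and of ALDH1L2 and PCK2 overlapped, so the order within each of these pairs is not settled by the spread. The order also depends on the deposited exon lengths, such as 9217 bases for PHGDH and 2206 for PSAT1. In CPM without the length, PHGDH was highest, at 453.8, followed by MTHFD2 at 364.4. Comparisons below are within a gene and use CPM without the length.

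Glucose starvation raised 9 of the 10 enzymes in cells with the control siPOOL, by 1.245- to 2.32-fold, and lowered none. The edgeR quasi-likelihood test called 8.77% of the 19275 genes higher and 16.8% in either direction, at a Benjamini-Hochberg adjusted p under 0.05. The median log2 fold change of the 10 was 0.48, against 0.01 over all genes tested, and in all 10 the 4 starved libraries lay above the 4 fed ones. How many of all genes separate without overlap was not counted, here or in the comparisons below. The gains were largest for PCK2, PSAT1 and CTH, each from another branch of the pathway.

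**Figure D1:**
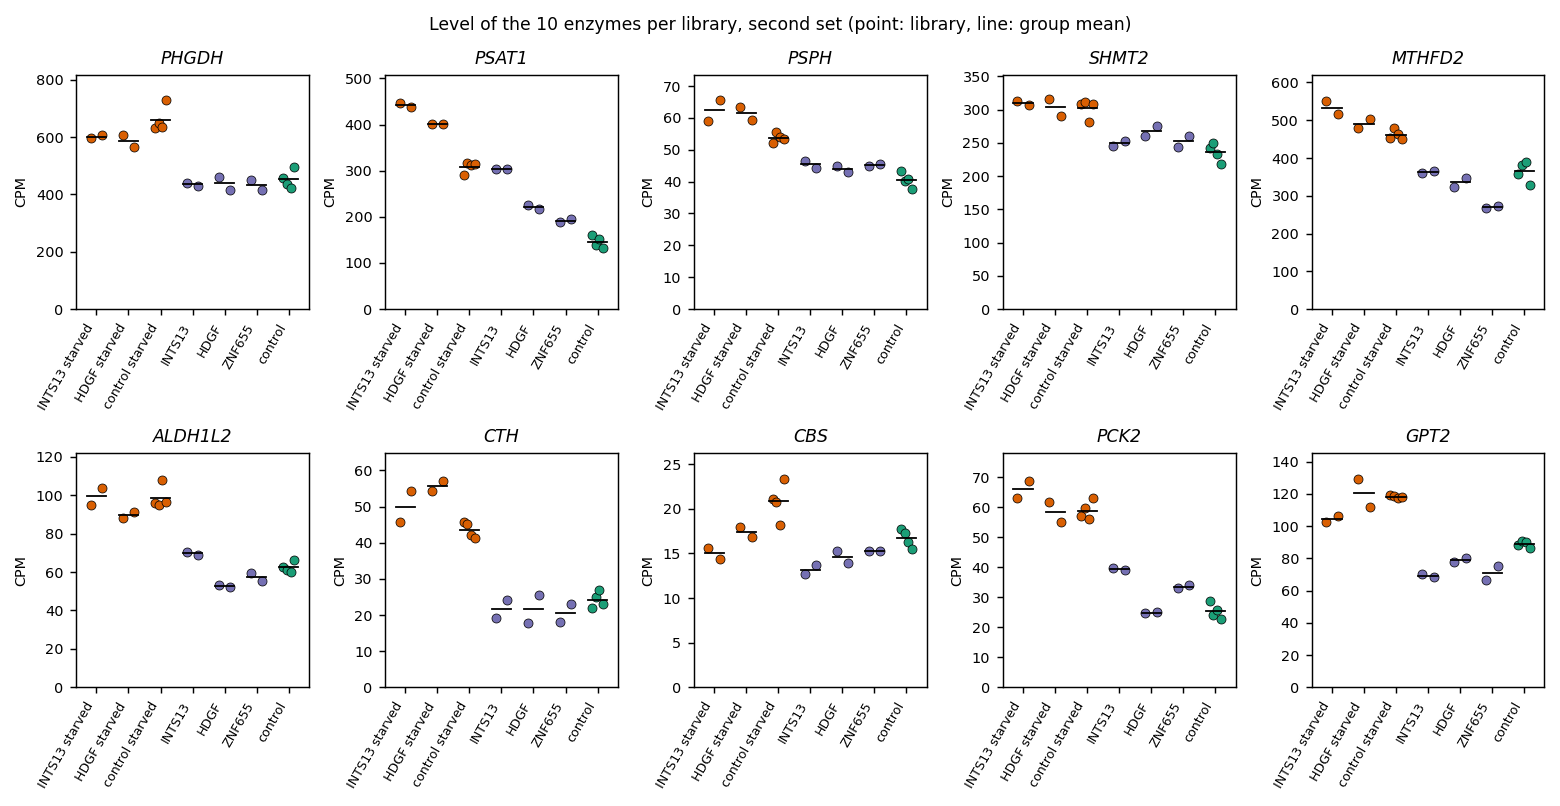
Level of each enzyme (CPM, vertical axis from 0) in the libraries of the second set; points are libraries, lines group means, and starved groups stand left of fed ones. In all 10 panels the 4 starved control libraries lie above the 4 fed control libraries, and PSAT1 is also high in fed INTS13-depleted cells, at 303.5 and 304.2 CPM.

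In the serine branch, PSAT1, which puts the amino group on the serine precursor, had 291, 317, 312 and 315 CPM in starved control cells, against 159.8, 139, 151 and 132 CPM in fed control cells, a log2 fold change of 1.08 ± 0.11 (SE, adjusted p = 4.41e-07). The 4 starved libraries stood far above the 4 fed ones. PHGDH, the entry enzyme, had 632, 651, 635 and 729 CPM in starved cells, against 458, 436, 424 and 497 CPM in fed cells (0.54 ± 0.08, adjusted p = 1.43e-05). PSPH, the phosphatase that releases serine, had 52.1, 55.7, 53.9 and 53.3 CPM in starved cells, against 43.5, 40.1, 40.7 and 37.6 CPM in fed cells (0.41 ± 0.10, adjusted p = 0.00398). PHGDH and PSPH moved by less than PSAT1, with no overlap between starved and fed libraries for either.

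In the mitochondrial 1-carbon branch, ALDH1L2, which oxidises formyl-folate to carbon dioxide, had 95.7, 94.7, 108.1 and 96.2 CPM in starved cells, against 62.5, 61.2, 59.9 and 66.2 CPM in fed cells (log2 fold change 0.66 ± 0.10, adjusted p = 4.93e-05). ALDH1L2 lies across from the opposite-strand genes C12orf45 and WASHC4, whose median counts of 1534 and 2703 are close to its own 1974, and without a stated strand setting reads shared with them cannot be told apart. SHMT2, which splits serine into glycine and a 1-carbon unit, had 308, 311, 281 and 309 CPM in starved cells, against 243, 249.9, 234 and 219 CPM in fed cells (0.36 ± 0.08, adjusted p = 0.00281). MTHFD2, which oxidises the folate carrier next, had 453, 480.03, 463 and 450.4 CPM in starved cells, against 357, 381, 391 and 329 CPM in fed cells (0.34 ± 0.12, adjusted p = 0.0571). MTHFD2 thus missed the threshold although its groups did not overlap.

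In the cysteine branch, CTH, which releases cysteine from cystathionine, had 45.8, 45.2, 42.2 and 41.3 CPM in starved cells, against 22.02, 25.0, 27.1 and 23.1 CPM in fed cells (log2 fold change 0.84 ± 0.17, adjusted p = 0.000901). CBS, which makes cystathionine, had 21.1, 20.8, 18.2 and 23.3 CPM in starved cells, against 17.7, 17.3, 16.3 and 15.5 CPM in fed cells (0.32 ± 0.10, adjusted p = 0.0298). The 4 starved libraries were all above the fed ones in both genes, by a narrow margin for CBS. CBS has a near-identical copy, CBSL, in the same annotation, which held 29.3 to 39.3% of their joint counts, so counting may have split reads between them. With both summed, the log2 fold change was 0.24 ± 0.09 and the call was lost (adjusted p = 0.0727). The CBS call was also lost without starved replicate 3a, 3b or 4b or fed replicate 4a or 4b, at adjusted p between 0.0575 and 0.118, while the other 8 calls held whichever library was left out.

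PCK2, which turns oxaloacetate into phosphoenolpyruvate inside mitochondria, had 57.0, 59.6, 55.9 and 62.9 CPM in starved control cells, against 28.6, 24.2, 25.9 and 22.6 CPM in fed control cells (log2 fold change 1.22 ± 0.12, adjusted p = 1.48e-07). PCK2 was the most raised of the 10, at 2.32-fold. GPT2, which makes alanine and 2-oxoglutarate from pyruvate and glutamate, had 119, 119, 118 and 118 CPM in starved cells, against 88.2, 90.7, 90.4 and 86.4 CPM in fed cells (0.41 ± 0.09, adjusted p = 0.00199). The spread within each group of GPT2 was small, at an SD of 0.709 CPM in starved and 2.03 CPM in fed cells.

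In INTS13-depleted cells, starvation raised 4 of the 10 enzymes, with 0.856% of all genes called higher and 1.32% called in either direction. CTH had 45.7 and 54.2 CPM in starved INTS13-depleted cells, against 19.3 and 24.1 CPM in fed INTS13-depleted cells (log2 fold change 1.21 ± 0.24, adjusted p = 0.0106). PCK2 had 63.1 and 68.6 CPM in the starved cells, against 39.8 and 39.1 CPM in the fed ones (0.74 ± 0.16, adjusted p = 0.022). GPT2 and PHGDH passed as well, at 0.59 ± 0.13 and 0.47 ± 0.11 (adjusted p = 0.0189 and 0.0251). All 10 had both starved libraries above both fed ones, with a median log2 fold change of 0.52, against -0.01 over all genes. These calls rest on 2 libraries a side: in the 4 fits that each left out 1 library, 0 or 1 enzyme was called, CTH being called only without starved replicate 3.

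In HDGF-depleted cells, starvation raised 7 of the 10, with 2.09% of all genes called higher and 3.54% in either direction. CTH had 54.2 and 57.0 CPM in starved HDGF-depleted cells, against 17.9 and 25.6 CPM in fed HDGF-depleted cells (log2 fold change 1.35 ± 0.24, adjusted p = 0.00207). PCK2 had 61.6 and 55.1 CPM in the starved cells, against 24.6 and 25.1 CPM in the fed ones (1.23 ± 0.17, adjusted p = 0.000176). PSAT1 had 401 and 402 CPM in the starved cells, against 226 and 217 CPM in the fed ones (0.86 ± 0.16, adjusted p = 0.00296). ALDH1L2, GPT2, PSPH and PHGDH rose by 0.76, 0.61, 0.48 and 0.42 on the log2 scale, while MTHFD2 (0.55), CBS (0.25) and SHMT2 (0.18) did not pass. Again all 10 had no overlap between starved and fed libraries, and the median was 0.58, against 0.0024 over all genes. PCK2 kept its call whichever library was left out. CTH lost it without fed replicate 3 (adjusted p = 0.0774), PSAT1 and ALDH1L2 without fed replicate 4 (0.0558 and 0.0557), GPT2 in 3 of 4 such fits, and PHGDH and PSPH in all 4.

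**Figure D2:**
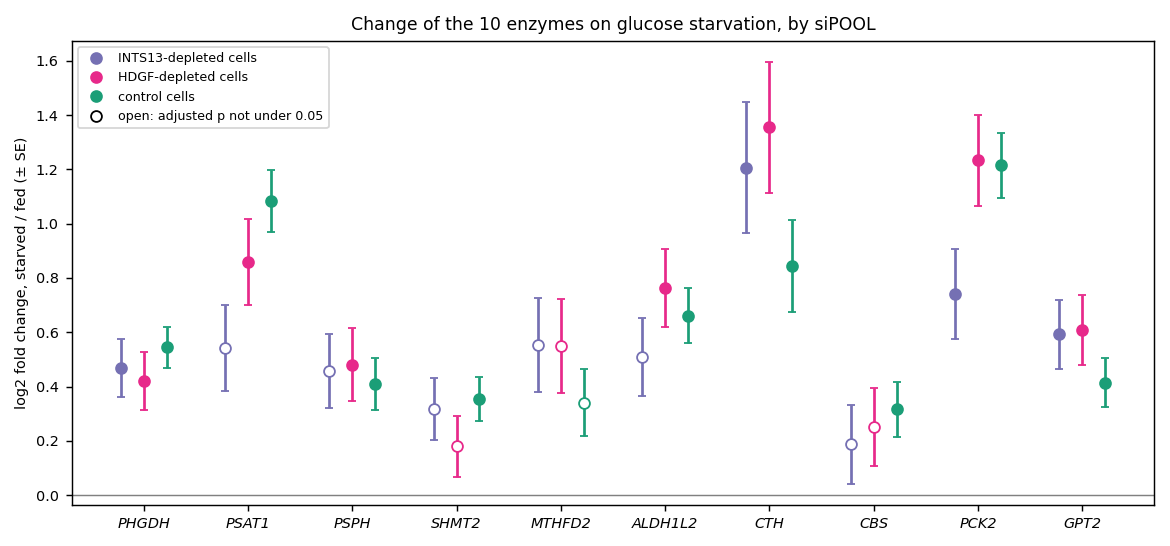
Log2 fold change of starved over fed cells (vertical axis, bars are SE) for each enzyme in INTS13-depleted, HDGF-depleted and control cells; open points did not pass the adjusted p of 0.05. All values lie above 0, and PSAT1 is lowest in INTS13-depleted cells, at 0.54, against 1.08 in control cells.

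Whether the answer to starvation differed with the siPOOL was tested by the interaction. With INTS13 depletion, 0 of 10 enzymes passed, as did 0.0156% of all genes, and 2 enzymes, beside 5.72% of all genes, had an unadjusted p under 0.05. Those were PSAT1, whose rise was smaller by 0.54 ± 0.19 on the log2 scale (interaction -0.54, adjusted p = 0.642), and PCK2 (-0.47 ± 0.20, adjusted p = 0.798). Both were already higher in fed INTS13-depleted cells. The DESeq2 Wald test called 0 of 10 too, whereas a fit of the second set alone, with a smaller spread, called both, PSAT1 at -0.53 ± 0.08 (adjusted p = 0.00208) and PCK2 at -0.46 ± 0.11 (adjusted p = 0.0313), with 1.64% of all genes. With HDGF depletion, 0 of 10 enzymes and 0% of all genes passed. An unadjusted p under 0.05 was found for 0 of 10, beside 4.72% of all genes, and DESeq2 called 0. The interaction values ranged between -0.22 for PSAT1 and 0.51 for CTH, with SE up to 0.293. The fit of the second set alone called 0 of 10 for HDGF as well, with 0.22% of all genes.

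In fed cells, INTS13 depletion raised PSAT1 and PCK2 and lowered GPT2. Of all genes, 6.53% were called higher, 6.23% lower and 12.8% in either direction, and the median of the 10 was 0.04, against 0.01 over all genes. PSAT1 had 303.5 and 304.2 CPM in INTS13-depleted cells, against the fed control values above, a log2 fold change of 1.06 ± 0.13 (adjusted p = 3.65e-06). That level, 303.9 ± 0.502 CPM (SD, n = 2), stood beside 308.5 ± 11.7 CPM in starved control cells (n = 4). PCK2 had 39.8 and 39.1 CPM in INTS13-depleted cells, against 22.6 to 28.6 CPM in controls (0.64 ± 0.14, adjusted p = 0.00299). GPT2 had 70.3 and 68.4 CPM in INTS13-depleted cells, against 86.4 to 90.7 CPM in controls (-0.36 ± 0.11, adjusted p = 0.0342). PSAT1 kept its call whichever library was left out, PCK2 lost it without INTS13 replicate 3 (adjusted p = 0.0575), and GPT2 lost it in 5 of 6 such fits, all but the one without control replicate 4b (adjusted p up to 0.188). CBS was at -0.34 ± 0.13 (adjusted p = 0.0728), and passed with CBSL added (-0.41 ± 0.11, adjusted p = 0.0152). PHGDH, PSPH, SHMT2, MTHFD2, ALDH1L2 and CTH lay between -0.16 and 0.17 and did not pass.

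HDGF depletion in fed cells raised PSAT1 alone among the 10, with 1.89% of all genes called higher and 4.49% in either direction. PSAT1 had 226 and 217 CPM in HDGF-depleted cells, against 132 to 159.8 CPM in controls (log2 fold change 0.61 ± 0.13, adjusted p = 0.00672). The call was lost without either HDGF library, at adjusted p = 0.136 without replicate 3 and 0.0756 without replicate 4. PCK2, at 24.6 and 25.1 CPM, was within the range of its controls (-0.03 ± 0.15). The median of the 10 was -0.08, against -0.0014 over all genes, and the other 8 ranged between -0.24 for ALDH1L2 and 0.18 for SHMT2.

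ZNF655 depletion, with 11.5% of all genes called, gave 0 of 10 enzymes. An unadjusted p under 0.05 was found for 4, beside 24% of all genes, and DESeq2 called 2, with 15.7% of all genes. For 7 of the 10 the libraries did not overlap their controls, a count without a share over all genes. Closest were PSAT1 at 188 and 194 CPM, against 132 to 159.8 CPM in controls (log2 fold change 0.40 ± 0.14, adjusted p = 0.0575), and GPT2 at 66.8 and 75.0 CPM, against 86.4 to 90.7 CPM (-0.33 ± 0.11, adjusted p = 0.0577). PCK2 and MTHFD2 followed, at 0.41 ± 0.14 and -0.43 ± 0.15 (adjusted p = 0.0657 and 0.0691). In a fit of the second set alone, with ZNF655 counted in it, these 4 passed, but so did 29.5% of all genes.

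In starved cells, INTS13 depletion raised PSAT1 and lowered CBS, with 2.32% of all genes called higher, 1.54% lower and 3.86% in either direction. PSAT1 had 447 and 438 CPM in starved INTS13-depleted cells, against 291 to 317 CPM in starved control cells (log2 fold change 0.52 ± 0.13, adjusted p = 0.0255), the highest levels of PSAT1 in any library. The call was lost without either starved INTS13 library (adjusted p = 0.278 and 0.159) or starved control 3a (0.0678). CBS had 15.6 and 14.4 CPM in starved INTS13-depleted cells, against 18.2 to 23.3 CPM in starved control cells (-0.47 ± 0.13, adjusted p = 0.0307, and 0.0136 with CBSL added). Leaving out 1 library ended the CBS call in 5 of 6 fits, all but the one without starved control 4a, at adjusted p up to 0.301. PCK2, called in fed cells, was at 0.16 ± 0.14 (adjusted p = 0.644). HDGF depletion in starved cells gave 0 of 10 enzymes, with 0.659% of all genes called, and 0 by DESeq2. An unadjusted p under 0.05 was found for 2 enzymes, beside 11% of all genes. PSAT1, at 401 and 402 CPM, against 291 to 317 CPM in starved controls, had a log2 fold change of 0.38 ± 0.14 (adjusted p = 0.236).

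**Figure D3:**
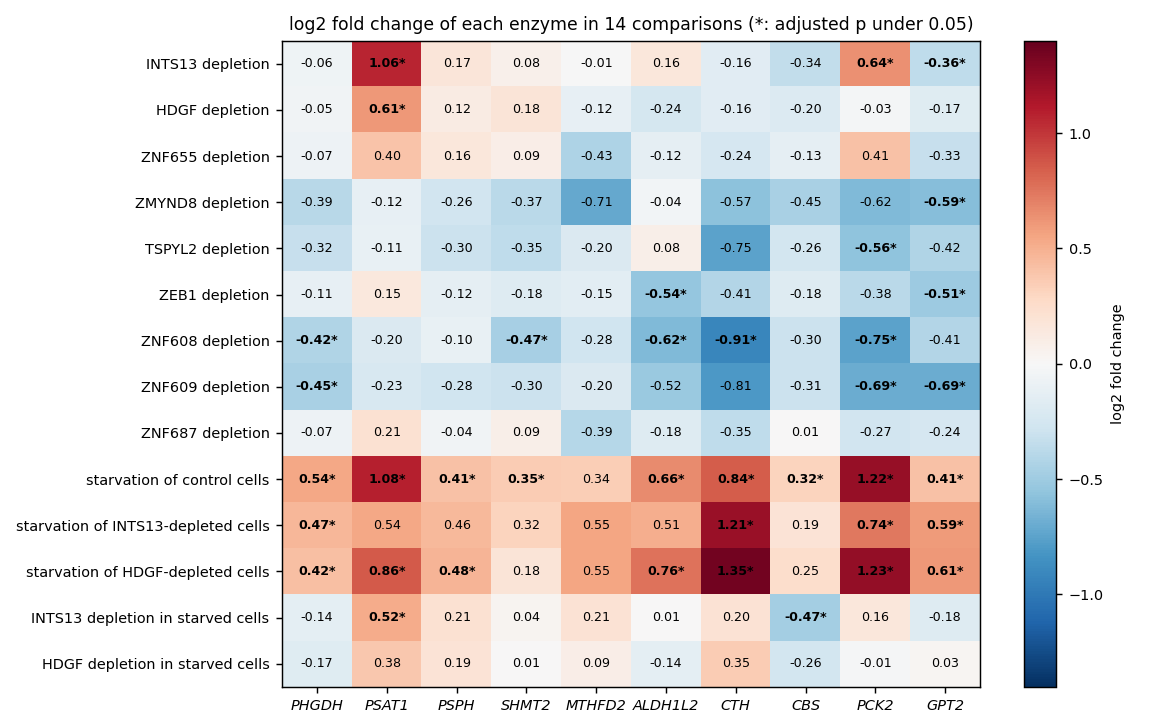
Log2 fold change of each enzyme (columns) in the 14 comparisons (rows), each depleted over control or starved over fed; an asterisk marks an adjusted p under 0.05. The 3 starvation rows hold only positive values, up to 1.35 for CTH, while the ZMYND8, ZNF608 and ZNF609 rows hold only negative ones.

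The levels of some of the enzymes differed between the control groups of the 3 sets, which bears on every depletion above. PSAT1 averaged 216.2 ± 9.38 CPM in controls labelled for ZMYND8 (n = 2), against 145.5 ± 12.4 CPM in controls of the second set (n = 4), a log2 difference of 0.57 ± 0.13 (adjusted p = 0.011). PCK2 averaged 45.5 ± 7.68 CPM in the controls for ZMYND8, against 25.3 ± 2.56 CPM in the second set (0.84 ± 0.14, adjusted p = 0.00113), and SHMT2 differed by 0.36 ± 0.10 (adjusted p = 0.0242). The other enzymes did not pass between these 2 control groups, and 7.66% of all genes were called. Controls of the first set were higher still, with 290.5 ± 58.7 CPM of PSAT1 and 80.3 ± 21.3 CPM of PCK2 (n = 3), a difference not tested here. Differences between control groups were thus as large as several of the depletion effects.

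**Figure D4:**
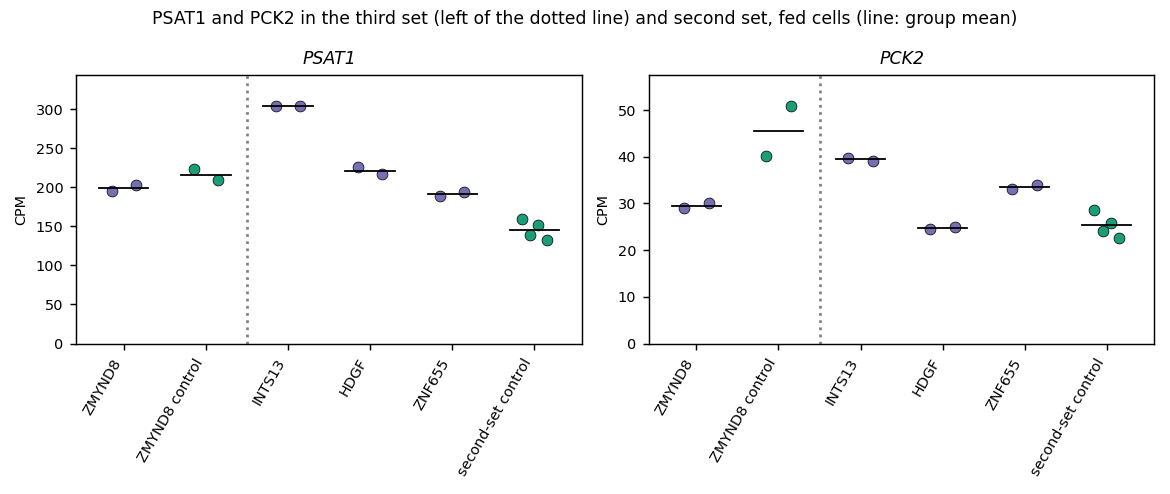
Level of PSAT1 and PCK2 (CPM, vertical axis from 0) in fed cells of the third set, left of the dotted line, and the second set; points are libraries and lines group means. PSAT1 in INTS13-depleted cells (303.5 and 304.2 CPM) lies above both control groups, whereas PCK2 there (39.8 and 39.1 CPM) lies above the second-set controls and just under the ZMYND8 controls (40.1 and 50.9 CPM).

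The controls for ZMYND8 were then put in place of those of the second set, as planned for ZNF655 depletion and, for INTS13 and HDGF depletion, as an alternative chosen after these levels were seen. Since these controls were counted in another set, a difference between sets cannot be told apart here from one of depletion. With 14.1% of all genes called, PSAT1 remained higher in INTS13-depleted cells (log2 fold change 0.49 ± 0.16, adjusted p = 0.0378) and GPT2 lower (-0.57 ± 0.13, adjusted p = 0.00354). PCK2 turned to -0.20 ± 0.17 (adjusted p = 0.447), and CBS passed (-0.55 ± 0.14, adjusted p = 0.0111). For HDGF depletion, with 13.1% of all genes called, the same exchange took PSAT1 to 0.03 ± 0.16 (adjusted p = 0.923), while PCK2 (-0.87 ± 0.17, adjusted p = 0.00109) and GPT2 (-0.38 ± 0.13, adjusted p = 0.0476) became lower. ZNF655 depletion, with 9.11% of all genes called, then had MTHFD2 at -0.79 ± 0.17 (adjusted p = 0.00589) and GPT2 at -0.54 ± 0.13 (adjusted p = 0.00931). PSAT1 was at -0.18 ± 0.16 and PCK2 at -0.44 ± 0.17 after ZNF655 depletion. Neither passed, and both were positive against the second-set controls. Of these 3 depletions, that of INTS13 had PSAT1 higher and GPT2 lower past the threshold against both control groups. For GPT2 this sets INTS13 little apart. Against the second-set controls ZNF655 depletion had a similar value that just missed the threshold (-0.33, against -0.36 for INTS13). The INTS13 call there was lost in most fits with 1 library left out, as given above.

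ZMYND8 depletion lowered GPT2, with 0.301% of all genes called lower and 0.747% in either direction. GPT2 had 68.3 and 68.5 CPM in ZMYND8-depleted cells, against 96.7 and 109.5 CPM in its controls (log2 fold change -0.59 ± 0.13, adjusted p = 0.0221). All 10 enzymes had a negative value, with a median of -0.42, against 0.01 over all genes. An unadjusted p under 0.05 was found for 7, beside 9.62% of all genes. For 9, both depleted libraries lay below both controls, a count without a share over all genes. MTHFD2 had 298 and 272 CPM in ZMYND8-depleted cells, against 445 and 489 CPM in its controls (-0.71 ± 0.17, adjusted p = 0.0503). PCK2 had 29.0 and 30.1 CPM in the depleted cells, against 40.1 and 50.9 CPM (-0.62 ± 0.17, adjusted p = 0.0804), and PHGDH had 380 and 408 CPM, against 479.9 and 555 CPM (-0.39 ± 0.11, adjusted p = 0.0823). CTH and CBS lay at -0.57 ± 0.24 and -0.45 ± 0.14 (adjusted p = 0.41 and 0.178), and ALDH1L2, at 62.8 and 72.6 CPM, overlapped its controls at 66.6 and 72.8 CPM. The GPT2 call was lost without ZMYND8 replicate 3 or 4 or control replicate 4, at adjusted p between 0.178 and 0.308. DESeq2 called 5 enzymes and 2% of all genes, and a fit of the third set alone called 8 enzymes and 9.42% of all genes. Against the controls of the second set, with 13.8% of all genes called, GPT2 was lower (-0.38 ± 0.11) and PSAT1 higher (0.46 ± 0.14, adjusted p = 0.0245 each), and PCK2 was at 0.22 ± 0.14. In that comparison, too, set and depletion cannot be told apart.

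In the first set, every call among the 5 depletions was lower, and libraries with replicate number 1 stood apart from those with number 2. Ribosomal protein genes took 9.93 to 15.9% of the counts in number 1 libraries and 7.12 to 9.69% in number 2 libraries, and control 1a, at 12.6%, had lower levels of 9 of the 10 enzymes than controls 1b (8.44%) and 2 (8.45%). Replicate numbers pair the libraries of this set, so each result is given with the replicate block too. The part of this split in the results was not tested beyond the fits with the block and within numbers given here.

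ZNF608 depletion lowered 5 of the 10, with 1.68% of all genes called lower and 2.76% in either direction. PCK2 had 47.5 and 47.9 CPM in ZNF608-depleted cells, against 61.8, 75.5 and 103.6 CPM in controls (log2 fold change -0.75 ± 0.15, adjusted p = 0.00452). CTH had 33.7 and 23.2 CPM in the depleted cells, against 36.7, 53.7 and 69.9 CPM in controls (-0.91 ± 0.22, adjusted p = 0.0191). ALDH1L2 had 52.5 and 49.5 CPM in the depleted cells, against 64.0, 81.1 and 89.1 CPM (-0.62 ± 0.13, adjusted p = 0.0079). SHMT2 (-0.47 ± 0.10, adjusted p = 0.0118) and PHGDH (-0.42 ± 0.10, adjusted p = 0.0162) passed as well, and in all 5 the groups did not overlap. The median of the 10 was -0.41, against -0.0008 over all genes. With the replicate block over all libraries 7 were lower and 8.65% of all genes were called, whereas a block within the first set alone called 0, with PCK2 and SHMT2 closest (adjusted p = 0.0509 each).

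ZNF609 depletion lowered 3 of the 10, with 0.379% of all genes called lower and 0.571% in either direction. GPT2 had 71.3 and 71.6 CPM in ZNF609-depleted cells, against 86.7, 123 and 136 CPM in controls (log2 fold change -0.69 ± 0.12, adjusted p = 0.0033). PCK2 had 53.0 and 46.5 CPM in the depleted cells (-0.69 ± 0.15) and PHGDH 402 and 416 CPM, against 497, 566 and 614 CPM in controls (-0.45 ± 0.10, adjusted p = 0.0292 each). All 10 values were negative, with a median of -0.38, against -0.02 over all genes. With the block, 6 were lower over all libraries (2.23% of genes) and 0 in the first set alone.

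ZEB1 depletion lowered ALDH1L2 and GPT2, with 1.99% of all genes called lower and 3.77% in either direction. ALDH1L2 had 46.0 and 61.1 CPM in ZEB1-depleted cells, against 64.0 to 89.1 CPM in controls (log2 fold change -0.54 ± 0.13, adjusted p = 0.02), and GPT2 had 77.0 and 85.7 CPM, against 86.7 to 136 CPM (-0.51 ± 0.12, adjusted p = 0.0145). The highest depleted and lowest control libraries were close in both genes. TSPYL2 depletion lowered PCK2, with 1.08% of all genes called lower and 2.22% in either direction: 59.6 and 49.1 CPM in TSPYL2-depleted cells stood against 61.8 to 103.6 CPM in controls (-0.56 ± 0.15, adjusted p = 0.0455). ZNF687 depletion called 0 of 10, with 0.254% of all genes called, and 0 by DESeq2. An unadjusted p under 0.05 was found for 2 enzymes, beside 9.08% of all genes. With the block over all libraries, 2 enzymes were lower after ZEB1 (13.6% of all genes called), 7 after TSPYL2 (18.3%) and 1 (MTHFD2, -0.49 ± 0.10, adjusted p = 0.00798) after ZNF687 depletion (1.17%), and with the block in the first set alone 0 in each.

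**Figure D5:**
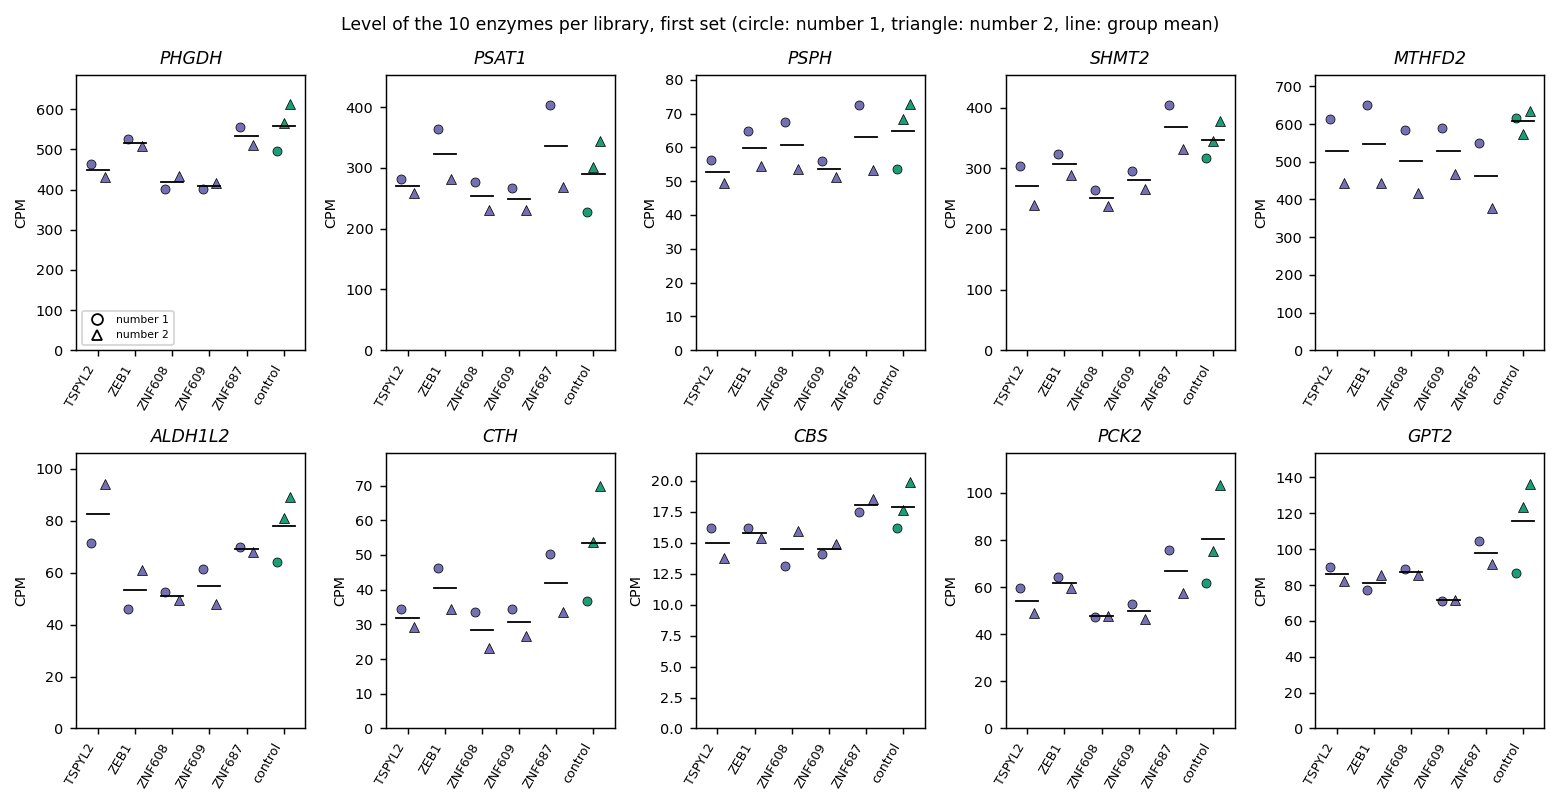
Level of each enzyme (CPM, vertical axis from 0) in the libraries of the first set, with number 1 as circles, number 2 as triangles (control numbers as in the sample descriptions) and lines for group means. The lone number 1 control lies below both number 2 controls in 9 panels, MTHFD2 being the exception, and the depleted groups are lower mainly against the number 2 controls.

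Within replicate numbers, the values of the first set were as follows. Among number 2 libraries the median log2 CPM difference of the 10 enzymes was -0.57 for ZNF608, -0.49 for ZNF609, -0.48 for TSPYL2, -0.41 for ZEB1 and -0.36 for ZNF687 depletion, and 9 or 10 of 10 were below 0 in each. Among number 1 libraries the same medians were -0.19, -0.10, -0.01, 0.07 and 0.28, with 7, 8, 6, 2 and 1 of 10 below 0. Every within-number comparison rests on 1 depleted library and has no replicate check, against 1 control in number 1 and 2 controls in number 2, and all 5 depletions share those controls. For single calls, leaving out control 2 ended CTH (-0.67, adjusted p = 0.137), ALDH1L2 (0.0597), SHMT2 (0.0735) and PHGDH (0.1) after ZNF608, PCK2 (0.228) and PHGDH (0.19) after ZNF609, PCK2 (0.183) after TSPYL2, and ALDH1L2 (0.132) and GPT2 (0.117) after ZEB1 depletion. Leaving out control 1b ended PHGDH after ZNF609 (adjusted p = 0.0941), PCK2 after TSPYL2 (0.0667), and ALDH1L2 (0.0769) and GPT2 (0.0736) after ZEB1 depletion. Leaving out a depleted library ended all 3 calls after ZNF609 (0.0768 to 0.36) and 5 of 5 after ZNF608 (0.0501 to 0.288; CTH only without replicate 2), and ended both after ZEB1 without replicate 1 (0.569 and 0.311) and PCK2 after TSPYL2 without replicate 2 (0.554). Leaving out control 1a ended none of these calls.

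Other genes of the pathway were counted from a list. Of its 52 genes of folate, purine, glycine, methionine and cysteine metabolism and counterparts of PCK2 and GPT2, 48 were tested, and starvation of control cells raised 6 and lowered 4 of them, with a median log2 fold change of -0.03, against 0.48 for the 10 enzymes. The 10 called are 20.8% of the 48, near the 16.8% of all genes. Raised were the mitochondrial formate-releasing enzyme MTHFD1L (0.21 ± 0.06, adjusted p = 0.0217), the serine racemase SRR (0.64 ± 0.15, adjusted p = 0.00359), SDSL (1.07 ± 0.24), pyruvate carboxylase PC (0.44 ± 0.13), AHCYL2 (0.28) and MPST (0.28). Lowered were the purine synthesis enzymes PPAT (-0.32 ± 0.07, adjusted p = 0.00181) and PAICS (-0.37 ± 0.08, adjusted p = 0.00174), the mitochondrial serine transporter SFXN1 (-0.35 ± 0.05, adjusted p = 5.11e-05) and PCK1, whose mean was 0.11 CPM in starved and 0.47 CPM in fed cells. The cytosolic counterparts SHMT1 (0.09 ± 0.05, adjusted p = 0.295) and MTHFD1 (0.17 ± 0.09, adjusted p = 0.207), and MTHFD2L (-0.09), ALDH1L1 (0.33) and CBSL (0.08), did not pass, and GPT had too few counts to be tested.

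Among the same 48 genes, INTS13 depletion raised MAT2B (log2 fold change 0.41 ± 0.12) and lowered others, among them FPGS (-0.49 ± 0.08, adjusted p = 9.13e-05), which keeps folate in the cell, GCAT (-0.58 ± 0.10), CBSL (-0.53 ± 0.12), CSAD (-0.48) and AHCY (-0.31). In all 14.6% of the 48 were called, near the 12.8% of all genes. ZNF655 depletion raised SFXN3 (0.92 ± 0.14) and ETHE1 (0.59) and lowered PAICS (-0.54 ± 0.10), AHCY (-0.35) and GART (-0.28), 10.4% of the list, against 11.5% of all genes. HDGF and ZMYND8 depletion called 0 of 48. An unadjusted p under 0.05 was found for 7 and 3, beside 16.1% and 9.62% of all genes. In the first set, TSPYL2 depletion lowered GART (-0.25) and SFXN1 (-0.37), ZNF608 depletion lowered MTHFD1L (-0.35), and ZEB1, ZNF609 and ZNF687 depletion called 0. INTS13 depletion in starved cells lowered 5, FPGS (-0.40), SLC19A1 (-0.35), GCAT (-0.43), CBSL (-0.49) and CSAD (-0.51), 10.4% of the list, against 3.86% of all genes.

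ATF4 and known targets of it outside these enzymes made a list of 12 genes. Starvation of control cells raised 8 of the 12 (66.7%, against 8.77% of all genes), with a median log2 fold change of 0.63, among them ATF4 itself, at 974.6 ± 20.4 CPM in starved cells, against 785.7 ± 20.2 CPM in fed cells (0.31 ± 0.10, adjusted p = 0.0383), JDP2 (1.22 ± 0.17, adjusted p = 1.18e-05), CHAC1 (1.47 ± 0.35, adjusted p = 0.0041) and the cystine carrier SLC7A11 (0.64 ± 0.21, adjusted p = 0.0328). After INTS13 depletion 1 of 12 was higher, SESN2 (0.86 ± 0.24, adjusted p = 0.018), a share of 8.33%, near the 6.53% of all genes, and ATF4 was at -0.17 ± 0.13. After HDGF depletion 1 was lower, JDP2 (-0.82 ± 0.23), a share of 8.33%, beside 2.6% of all genes, and ZNF655 depletion called 0. Starvation raised 5 of the 12 in HDGF-depleted cells (41.7%, against 2.09% of all genes) and 1 in INTS13-depleted cells (8.33%, against 0.856%). In starved cells, INTS13 depletion raised 2 of the 12 (16.7%, against 2.32% of all genes) and HDGF depletion called 0. After ZMYND8 depletion, with 0.301% of all genes lower, 2 were lower, SLC7A11 with 57.4 ± 3.95 CPM in depleted cells, against 137.8 ± 16.3 CPM in controls (-1.26 ± 0.30, adjusted p = 0.0358), and JDP2 (-1.20 ± 0.24), with a median of -0.57 and ATF4 at -0.56 ± 0.15 (adjusted p = 0.069). ZNF608 depletion lowered 4 of the 12 (33.3%, against 1.68% of all genes) and ZEB1 depletion 1 (8.33%, against 1.99%). TSPYL2, ZNF609 and ZNF687 depletion called 0. After ZNF609 depletion 8 of the 12 had an unadjusted p under 0.05, beside 9.81% of all genes, and 12 of 12 were negative. TSPYL2 depletion had 7 of the 12, beside 16.8% of all genes, and 11 negative. For ZNF687 depletion these were 4 of the 12, beside 9.08%, and 10 negative. These first-set values share the split by replicate number given above.

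Across the 35 libraries, each taken relative to the mean of its set's fed controls, most of the 10 enzymes varied together. Pearson's r of each with the mean of the other 9 was 0.97 for PCK2, 0.95 for CTH, 0.94 for PHGDH and for PSPH, 0.92 for SHMT2, 0.88 for GPT2, 0.86 for PSAT1, 0.83 for ALDH1L2, 0.82 for MTHFD2 and 0.61 for CBS. The closest pair was PSPH and PCK2 (0.94) and the least alike PSAT1 and CBS (0.34). PCK2 varied most, with an SD of 0.71 on the log2 scale, and CBS least, at 0.23. The 8 other genes most like the mean of the 10 were ASNSP1 (0.96), STC2 (0.96), SLC1A4 (0.94), MKS1 (0.94), HRK (0.94), SLC6A9 (0.94), KLHL24 (0.93) and NUPR1 (0.93). SLC1A4 and SLC6A9 carry neutral amino acids and glycine into cells, and STC2 is a secreted glycoprotein. The libraries share controls, sets and depth, and these values are descriptions.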

How the data were processed

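The authors deposited raw counts per gene, taken before removal of duplicate reads, for 35 libraries from a stranded total RNA kit with ribosomal RNA depleted. FastQC, cutadapt, STAR and hg38 are named in the submitters' processing notes, and the counting tool, annotation and strand setting are not given in the sources used here. Levels per kilobase use the exon length deposited by the authors, and log2 values were computed from the counts with a prior count of 2.

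The labels put the libraries in 15 groups. Genes were filtered with filterByExpr (edgeR 4.0.16, R 4.3.3, minimum count 10), which left 19275 of 60665, and scaled by TMM. One quasi-likelihood fit of the 15 group means, with 20 residual degrees of freedom, gave every comparison as a two-sided contrast with Benjamini-Hochberg adjustment over all genes tested, called under 0.05. CPM are TMM-scaled, and SE is from the same fit. The fit was tested on simulated data. The members and lists were chosen with earlier results of these data known. All 10 enzymes are named in every comparison. Other pathway genes are counted from fixed lists and named where called in INTS13, HDGF, ZNF655 or ZMYND8 depletion or starvation of control cells, and genes called in further comparisons were named after their values were seen, as were the examples of the ATF4 list.

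Replicate numbers pair the first set: the difference between numbers 1 and 2 correlated above 0.1 in 15 of 15 pairs of groups (median r 0.74 over 11595 genes). They do not pair the second set (6 of 21 pairs, median 0.03) or the third (1 pair, r 0.10). First-set controls are numbered 1a, 1b and 2 in the titles but 1, 2a and 2b in the descriptions, which the block follows. No 2 replicates agreed within sampling noise. Chi-square per degree of freedom was 5.08 to 233 in pairs of the first set and 3.10 to 11.3 in the other sets. The main fit shared its estimate of the spread over all 15 groups. In own-set fits the SE of PHGDH was 0.13 for TSPYL2 depletion (0.10 in the main fit) and 0.07 for INTS13 depletion (0.09 in the main fit). Alternatives were DESeq2 1.42.0 (size factors, Wald test), no filter, own-set fits, the replicate block, each library left out, CBS with CBSL, and other controls. Starved ZMYND8 libraries were not analysed here. The value of 1 listed pathway gene is not reported here.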

Additional observations from a re-analysis of the deposited data

Results flagged for a closer look

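In groups of 4 libraries, starved control replicate 4a stood apart from the other 3 for 2 enzymes. SHMT2 had 281.3 CPM in that library, against 308 to 311 CPM in the others, and ALDH1L2 had 108.1 CPM, against 94.7 to 96.2 CPM. Of 20 such sets of values 2 were flagged, and chance flags about 1 in 20. Both enzymes kept their call in starved control cells without this library.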

How the results depend on the processing

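Across the alternatives planned at the outset, other than leaving out a library, 208 of 239 values of the 38 called enzyme results kept their direction and their side of the threshold, 31 no longer passed and 0 reversed. These 239 include the fit with CBS and CBSL summed for all 38 results. It left the counts of every enzyme but CBS unchanged, so it could hardly move the other calls. Leaving out a library kept 127 of 211. The cause of changed counts was not tested. The number of enzymes called out of 10 moved as follows. With DESeq2 size factors it was 1 for ZNF655 and 2 for TSPYL2 depletion, with 12 and 2.24% of all genes called. With no filter it was 3 for ZNF655, 4 for ZMYND8, 2 for TSPYL2 and 1 for INTS13 depletion in starved cells. In that order, 4.75, 0.374, 1.53 and 1.53% of all genes were called. The DESeq2 Wald test gave 2 for ZNF655, 5 for ZMYND8, 5 for TSPYL2, 5 for ZNF609 and 7 for starvation of INTS13-depleted cells. Its shares of all genes were 15.7, 2, 5.86, 2.35 and 3.55%, in that order. A replicate block over all libraries gave 4 for ZNF655, 6 for ZMYND8, 7 for TSPYL2, 6 for ZNF609, 1 for ZNF687 and 9 for starvation of INTS13-depleted cells. The shares of all genes with this block were 20.9, 2.89, 18.3, 2.23, 1.17 and 5.58%, in the same order. Where numbers do not pair the libraries they share only a number. A fit of each set alone gave 0 for TSPYL2, ZEB1, ZNF608 and ZNF609, but 5 for INTS13, 4 for HDGF, 4 for ZNF655, 8 for ZMYND8, 9 for starvation of INTS13-depleted cells, 5 for INTS13 and 2 for HDGF depletion in starved cells and 2 for the INTS13 interaction. Outside the first set these fits also called more of all genes: 30.1% for INTS13, 16% for HDGF, 29.5% for ZNF655, 9.42% for ZMYND8, 12.7% for starvation of INTS13-depleted cells, and 16.3% for INTS13 and 7.82% for HDGF depletion in starved cells. In the first set, own-set fits called 0.00529, 0.148, 0.0529 and 0.00529% of all genes for TSPYL2, ZEB1, ZNF608 and ZNF609. The first set alone with its replicate block gave 0 for these depletions, with 0.264, 1.7, 1.76 and 0.19% of all genes. Chosen after seeing the data, the controls for ZMYND8 gave 2 for HDGF, and the planned exchange of the same controls 2 for ZNF655; second-set controls gave 2 for ZMYND8; and PCK2 after INTS13 depletion reversed to -0.20. Without the number 1 libraries, also chosen later, counts were 9 for ZNF608, 9 for ZNF609, 9 for TSPYL2, 7 for ZEB1 and 5 for ZNF687, with 9.12, 14.2, 17.1, 3.43 and 2.18% of all genes; this leaves 1 depleted library each, set against the same 2 controls, and takes out the control that was low in 9 of the 10 enzymes.

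Leaving out 1 library at a time gave 1 to 3 enzymes for INTS13, 0 to 1 for HDGF, 0 to 2 for ZNF655, 0 to 1 for ZMYND8, 0 to 6 for ZNF608, 0 to 5 for ZNF609, 0 to 4 for ZEB1, 0 to 4 for TSPYL2, 0 to 1 for ZNF687, 0 to 1 for starvation of INTS13-depleted and 2 to 5 of HDGF-depleted cells, 0 to 2 for INTS13 depletion in starved cells and 8 to 9 for starvation of control cells. Where this left 1 library in a group, it was taken to vary like the other groups. These ranges stand without the share of all genes in each fit. The 4 for ZEB1 depletion came without control 1a, with 21.2% of all genes called. Calls over all genes, and with them the shares set beside the enzymes, moved as well: the 726 of ZEB1 depletion lay between 28 in the first set alone and 7292 without ZEB1 replicate 2, the 428 of TSPYL2 between 1 and 3533, the 110 of ZNF609 between 1 and 2817, and the 255 of starvation of INTS13-depleted cells between 8, without starved replicate 4, and 2371. Those of starvation of control cells lay between 2408 and 6479 and of INTS13 depletion between 868 and 5624. Groups of 2 libraries limit what smaller changes can be detected.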
